A study of Mus musculus with 12 samples.

Results

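The genes described here are 30 mouse genes of cholesterol and fatty acid synthesis that are known targets of the sterol regulatory element-binding proteins (SREBPs), together with the SREBP genes themselves. They were chosen by name from pathway knowledge, with earlier results of these data known. They were matched to the 48795 genes of the count tables by Ensembl identifier, and all 30 had at least 10 counts over the 12 libraries. The cells were bone marrow-derived macrophages (BMDMs), grown from mouse bone marrow cells with M-CSF, the growth factor that drives macrophage formation. WT cells came from mice labelled C57BL/6, which the study's methods name as C57BL/6NJ, and Acod1-/- cells from the line labelled C57BL/6NJ-Acod1em1(IMPC)J/J, a germline edit of the gene of the enzyme that makes itaconate, and the study's methods give male mice of 1 range of ages for both. Cells of each genotype received vehicle, particulate matter (PM, an urban dust, 20 μg/cm2 for 24 hours) or PM after 2 hours of pretreatment with 0.25 mM 4-octyl itaconate (OI, a cell-permeable ester of itaconate). Each of the 6 groups had 2 libraries, and a group with OI and no PM was not analysed here, so the comparison of OI+PM with PM gives the effect of OI in PM-treated cells alone. The labels do not say whether the 2 libraries of a group came from separate mice or cultures, so the p-values measure the spread between these libraries, which may be technical.

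SREBPs are transcription factors held in the membrane of the endoplasmic reticulum. When sterols are scarce, SCAP carries them to the Golgi, where proteases release the active part, and INSIG proteins retain the complex when sterols are plentiful. SREBP-2, from Srebf2, mainly drives the genes of cholesterol synthesis, and SREBP-1, from Srebf1, mainly drives those of fatty acid synthesis and desaturation. In macrophages these pathways supply membrane lipid and are set against sterol efflux, which is driven by the liver X receptors (LXRs).

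The libraries held 33616577 to 36817898 counts assigned to genes. The 2 libraries of the WT OI+PM group and the 2 of the WT PM group stood further apart than those of the other groups: the chi-square statistic of their counts per degree of freedom was 58.5 and 27.3, against 2.61 to 8.32 elsewhere. In both pairs the difference between replicate 2 and replicate 1 went with exonic length across genes, with Spearman's rho of -0.61 in WT OI+PM and -0.60 in WT PM. Among the pathway genes the difference between the WT OI+PM libraries ran from -0.42 (Fasn) to 0.58 (Fdps) on the log2 scale. For some results of that group, what leaving out each of its libraries changed is therefore given beside them. Acod1, the targeted gene, had 1.84 and 2.49 normalised CPM (counts scaled to the effective size of the library) with vehicle, 181 and 170 with PM and 32.5 and 57.0 with OI+PM in WT libraries. In the libraries labelled Acod1-/- it had 1.26 and 1.22, 107 and 93.9, and 24.4 and 26.8 CPM in the same order. The gene total therefore does not by itself check the genotype, and which exons the reads of the Acod1-/- libraries came from was not tested. The 7 macrophage markers, among them Adgre1, Csf1r and Lyz2, summed to 13978 to 14411 CPM with vehicle, 22921 to 26928 with PM and 14290 to 16423 with OI+PM. Most of this sum was Lyz2, and the markers did not move together: mean Fcgr1 in WT libraries was 83.9 CPM with vehicle, 106 with PM and 28.0 with OI+PM, and mean Mertk was 86.4, 72.5 and 33.7. Of the T cell markers, Cd3e had no count in any library, and Cd2 and Cd3d had at most 2 and 1. The fibroblast or stroma list summed to 1.19 to 1.58 CPM with vehicle, 0.827 to 1.92 with PM and 0.169 to 0.841 with OI+PM. The neutrophil list summed to 5.36 to 5.79 CPM in both vehicle groups, 11.5 to 17.8 with PM and 29.5 to 61.2 with OI+PM, mainly from S100a8 (3.52 to 60.4 CPM), with at most 1 count of Ly6g, 4 of Elane and 7 of Mpo in a library. S100a9, on the same list, was lower with OI. Its mean was 1.71 CPM with PM and 0.446 with OI+PM in WT libraries, and 3.27 and 1.03 in Acod1-/- libraries. The part of these shifts in the results was not tested, and in these bulk samples fewer expressing cells and less RNA per cell cannot be told apart.

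Promoter sequences are shown for 4 members on which the results turn: Mvd, which had the largest rise, Mvk, which moved in opposite directions with PM and OI, Hmgcs1, the only one of the 23 members searched that matched the sterol regulatory element, and Fasn, the fatty acid synthase gene that fell. Each is the 250 bases before the transcription start, 5′ to 3′ on the strand of the gene, from RefSeq (GRCm38.p6). Capitals mark TCACNCCAC (a sterol regulatory element), CCAAT (the NF-Y box), GGGCGG (the Sp1 box) and CACGTG (an E-box) on either strand, and adjoining capitals in Fasn are overlapping CCAAT matches on opposite strands.
Mvd (chr8:122443423-122443672, minus strand): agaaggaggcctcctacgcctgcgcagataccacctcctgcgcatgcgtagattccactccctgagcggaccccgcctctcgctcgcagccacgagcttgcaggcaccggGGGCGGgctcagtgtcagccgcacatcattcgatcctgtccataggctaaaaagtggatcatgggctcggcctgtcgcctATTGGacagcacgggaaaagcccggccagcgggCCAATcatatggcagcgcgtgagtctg
Mvk (chr5:114444019-114444268, plus strand): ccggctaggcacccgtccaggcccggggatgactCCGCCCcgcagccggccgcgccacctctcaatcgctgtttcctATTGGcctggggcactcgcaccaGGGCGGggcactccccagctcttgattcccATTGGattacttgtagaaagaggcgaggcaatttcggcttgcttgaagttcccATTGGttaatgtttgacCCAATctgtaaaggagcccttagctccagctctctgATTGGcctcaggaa
Hmgcs1 (chr13:119690101-119690350, plus strand): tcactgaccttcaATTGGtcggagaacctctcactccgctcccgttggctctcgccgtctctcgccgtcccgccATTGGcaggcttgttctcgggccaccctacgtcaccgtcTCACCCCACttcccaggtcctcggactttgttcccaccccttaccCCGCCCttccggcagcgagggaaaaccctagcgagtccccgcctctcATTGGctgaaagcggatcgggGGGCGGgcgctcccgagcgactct
Fasn (chr11:120824548-120824797, minus strand): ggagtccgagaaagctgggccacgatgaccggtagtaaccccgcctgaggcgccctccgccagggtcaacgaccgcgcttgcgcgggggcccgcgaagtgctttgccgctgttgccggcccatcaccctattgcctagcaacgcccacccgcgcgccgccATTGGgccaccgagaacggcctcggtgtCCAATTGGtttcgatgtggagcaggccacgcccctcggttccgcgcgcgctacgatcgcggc

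NF-Y and Sp1 are factors known to bind beside SREBPs at many sterol-regulated promoters. The table held 28 promoters for 23 of the 30 members, each 250 bases before to 50 bases after a start. CCAAT lay in 20 of these 28 promoters (71.4%), against 38.0% of the 11301 promoters of all genes tested here and 37.4% of the 32851 promoters in the table. GGGCGG lay in 21 of the 28 (75%), against 62.8% of the promoters of tested genes and 35.7% of all. CACGTG lay in 4 of the 28 (14.3%; Dhcr7, Hsd17b7, Insig1 and Sc5d), against 10.4% and 7.15%. TCACNCCAC lay in 1 of the 28 (3.57%), that of Hmgcs1, at positions -137 to -129 from the start, against 1.15% and 1.24%. Holding both the NF-Y box and the Sp1 box went with either direction. Mvd, which rose with PM, and Mvk, which fell with OI, held both. So did Lss, Cyp51 and Tm7sf2, which rose with OI, and Hmgcs1 and Hsd17b7, which fell. Members lacking a box that passed with treatment in the main fit all fell. Of these, Elovl6 and Acaca held neither box, Fasn lacked the Sp1 box, and Fads2 and Acat2 lacked the NF-Y box. Fads2 fell from the only group through which it passed the filter on low values given below, so its fall is tied to that filter. Searched members that rose with treatment in the main fit held both. Alternative fits held exceptions. Acat2 rose with PM in Acod1-/- cells in the compared groups alone and without either WT OI+PM library. Pmvk, which lacked the Sp1 box, rose with OI+PM against vehicle in WT cells without WT OI+PM replicate 1. In Acod1-/- cells Pmvk fell in that comparison with a correction for exonic length. Fads1, Fdft1, Stard4 and Sqle had no promoter in the table. Whether a missing box went with a fall was not tested. A match is a description of the letters in this window and not a bound site.

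The pathway was expressed in resting WT macrophages, at very different levels from gene to gene. Per kilobase of exon, the mean level with vehicle was highest for Acly, the ATP citrate lyase that makes cytosolic acetyl-CoA (41.4 CPM per kb), then Hmgcs1, which makes HMG-CoA (23.1), and Msmo1, a sterol demethylase component (18.8). Ebp, Srebf2, Insig1 and Fads1 followed between 17.7 and 17.9 CPM per kb, with neighbours in this order overlapping in their libraries. Fdps, Acaca and Fads2 were low, at 0.742, 0.690 and 0.245 CPM per kb. Of the stearoyl-CoA desaturases, which place the first double bond in saturated fatty acids, Scd2 was at 2.22 CPM per kb, whereas Scd1 had at most 3 counts in any library. Idi1, the isopentenyl diphosphate isomerase, had 12 to 59 counts in a library. Idi1 and Scd1 did not pass the filter on low values (above 1.5 CPM in at least 2 libraries), so 28 members were tested among 11228 genes. Fads2 passed it only through the vehicle-treated Acod1-/- group, where it was highest, and is treated apart below.

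Reads of 50 bases cannot always be given to 1 gene. Of the 50-base windows in the transcripts of Acat2, 39.1% occurred also in transcripts of Acat3 or Tcp1. For Acaca the share was 30.4%, for Fdft1 26.5% (Ctsb and Gm6781), for Fdps 26.2%, for Idi1 25.3%, for Hmgcs1 11.6% and for Tm7sf2 9.87% (Vps51). Scd1 and Scd2 shared 4.56% and 3.97% of their windows, with each other, Scd3 and Scd4 among others. Exons of 10 members overlapped another annotated gene, among them Fdft1 with Ctsb, Cyp51 with Akap9, Tm7sf2 with Vps51 and Srebf1 with Rai1, and how the counting treated strand and shared reads is not given in the sources used here. Mvd, Fads1, Fasn, Hsd17b7 and Stard4 shared no window and overlapped no other gene.

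**Figure D1:**
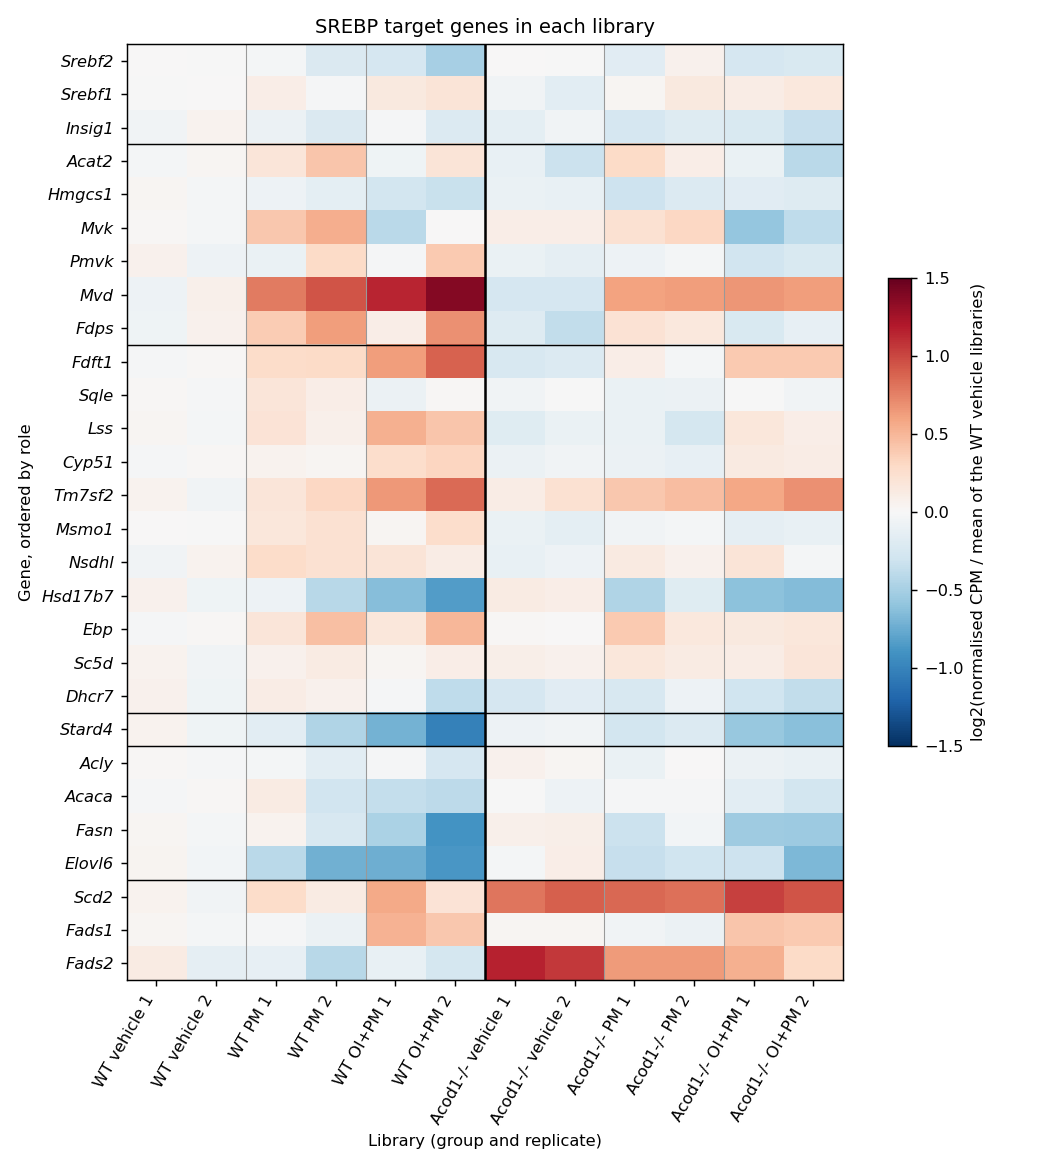
Log2 ratio of the normalised CPM in each of the 12 libraries (columns, 2 per group) to the mean of the WT vehicle libraries, for the 28 tested genes (rows, ordered by role, with lines between roles). Mvd is red in every PM and OI+PM library, Hsd17b7, Stard4 and Fasn are blue in the OI+PM libraries of both genotypes, and Scd2 and Fads2 are red in all 6 Acod1-/- libraries.

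Over the 6 groups the members moved little. The median member differed 1.41-fold between its highest and its lowest group mean, against 1.49-fold for the median of all tested genes. Mvd reached 2-fold (2.87-fold, from vehicle-treated Acod1-/- to OI+PM-treated WT cells). Fads2 did too (2.59-fold), but its highest group was the one through which it passed the filter, so its fold is tied to that filter. With Fads2 counted they were 2 of 28 or 7.14%, against 23.5% of all tested genes. Sc5d, the lathosterol oxidase gene, was the steadiest at 1.11-fold, and Acly differed 1.13-fold.

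The regulators moved little in size, but with OI+PM against vehicle Srebf2 passed the test in WT cells and Srebf1 in Acod1-/- cells. Srebf2 was at 128 and 127 CPM with vehicle, 125 and 110 with PM and 107 and 90.2 with OI+PM in WT libraries, and at 127 and 127, 113 and 133, and 107 and 108 in Acod1-/- libraries. All 4 OI+PM libraries lay below all 4 vehicle libraries. For OI+PM against PM, Srebf2 did not pass in the main fit. With a correction for exonic length it fell in WT (-0.20, edgeR adjusted p = 0.0235) and Acod1-/- cells (-0.19, adjusted p = 0.0374). It also fell in WT cells with scaling to total counts and in Acod1-/- cells in the compared groups alone. Against vehicle, Srebf2 fell with OI+PM in WT cells (log2 fold change -0.37 ± 0.10 SE, edgeR adjusted p = 0.00964), and the value in Acod1-/- cells, -0.24 ± 0.10, missed the threshold (adjusted p = 0.0717), although it passed with scaling to total counts, in the compared groups alone and without either WT OI+PM library. The WT fall was lost without WT OI+PM replicate 2, the lower of the pair, and in a fit of the compared groups alone. Srebf1 was at 56.8 and 57.4, 61.3 and 56.6, and 63.2 and 65.4 CPM in WT libraries, and at 55.0 and 51.2, 58.3 and 63.4, and 61.8 and 63.5 in Acod1-/- libraries. It rose with OI+PM against vehicle in Acod1-/- cells (0.24 ± 0.07, adjusted p = 0.0194), with 0.17 ± 0.07 in WT cells (adjusted p = 0.0556), so the values of the SREBP genes had opposite signs. The Srebf1 rise was lost without Acod1-/- vehicle replicate 2, without either Acod1-/- OI+PM library, and with scaling to total counts. The WT value passed without WT PM replicate 2, without WT OI+PM replicate 1 and with a correction for the trend of fold change with exonic length over all genes (0.25, adjusted p = 0.00589), with which Srebf1 also rose with PM in Acod1-/- cells (0.25, adjusted p = 0.0140). Insig1, itself a sensitive SREBP target and the brake on SREBP release, was between 42.9 and 56.8 CPM in all 12 libraries. It did not pass the test in any comparison, with log2 fold changes of -0.15 ± 0.09 and -0.13 ± 0.09 for PM and 0.04 ± 0.09 and -0.06 ± 0.09 for OI in WT and Acod1-/- cells. For OI+PM against vehicle the values were -0.11 ± 0.09 and -0.19 ± 0.09, and these passed as falls in both genotypes with the length correction (-0.27 and -0.29) and with scaling to total counts, and in Acod1-/- cells also in the compared groups alone and without either WT OI+PM library.

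PM alone changed few of these genes in the main fit. In a fit of the compared groups alone, 3 members passed in WT and 13 in Acod1-/- cells. Mvd, which encodes mevalonate diphosphate decarboxylase, the enzyme that forms isopentenyl diphosphate, rose 1.83-fold in both genotypes. In WT cells Mvk, mevalonate kinase, also rose (1.39-fold), and Elovl6, the elongase of C16 fatty acids, fell (1.47-fold). In Acod1-/- cells Hsd17b7, a sterol ketoreductase, fell (1.34-fold). In all, 3 of 28 members passed the test in WT cells (2 rose, 1 fell) and 2 of 28 in Acod1-/- cells (1 rose, 1 fell), against 24.8% (12.6% up, 12.2% down) and 23.9% (12% up, 11.9% down) of all tested genes. The median log2 fold change over the members was 0.09 in WT and 0.00 in Acod1-/- cells, against 0.01 and -0.00 over all genes.

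Mvd (chr8:122433601-122443422, minus strand, GRCm38) was at 13.8 and 15.3 CPM in WT libraries with vehicle and at 25 and 28.0 with PM. In Acod1-/- libraries it was at 12.1 and 12.2 with vehicle and 22.0 and 22.4 with PM. Every PM library lay above every vehicle library. The log2 fold change was 0.87 ± 0.10 in each genotype (edgeR adjusted p = 0.000150 in WT and 0.000152 in Acod1-/- cells), and both passed in all 22 alternative fits, with lowest values of 0.66 and 0.72. Mvk (chr5:114444269-114460591, plus strand) was at 9.77 and 9.46 CPM with vehicle and 12.7 and 14.1 with PM in WT libraries, and at 10.3 and 10.3 against 11.2 and 11.9 in Acod1-/- libraries. Both pairs of groups were separate, and the rise passed in WT (0.48 ± 0.13, adjusted p = 0.0225) with 0.17 ± 0.13 in Acod1-/- cells. Elovl6 was at 11.6 and 11 against 8.53 and 6.88 CPM in WT libraries (-0.55 ± 0.14, adjusted p = 0.0161), and at 11.1 and 12.1 against 8.93 and 9.22 in Acod1-/- libraries (-0.35 ± 0.13, adjusted p = 0.0859). Hsd17b7 was at 14.0 and 13.9 against 9.42 and 11.4 CPM in Acod1-/- libraries (-0.42 ± 0.13, adjusted p = 0.0441), and at 13.5 and 12.4 against 12.3 and 9.64 in WT libraries (-0.24 ± 0.13). For both genes the PM libraries were the lower ones in each genotype. The Mvk and Elovl6 calls were lost without WT vehicle replicate 1, WT vehicle replicate 2 or WT PM replicate 2, each of which left 1 member, and without WT PM replicate 1 the count was 5. The Hsd17b7 call was lost without any 1 of the vehicle or Acod1-/- OI+PM libraries or Acod1-/- PM replicate 1, each of which left 1 member. The number of members past the test with PM was 10 in WT and 9 in Acod1-/- cells when either WT OI+PM library was left out of the shared estimate of spread, and 7 and 4 after a correction for exonic length.

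Member counts with PM under the alternative fits are given without the share of all genes called in the same fits. They therefore do not show whether members passed more often than other genes. PM and vehicle libraries did not overlap for 22 of 28 members in WT cells (all genes, 72.4%) and 23 of 28 in Acod1-/- cells (77.0%). With 2 libraries a group such separation is common among all genes. Among members that did not pass, Acat2, Fdps, Fdft1, Nsdhl, Ebp and Tm7sf2 had log2 values of 0.20 to 0.51 in both genotypes, and Stard4 had -0.30 ± 0.11 and -0.17 ± 0.11.

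**Figure D2:**
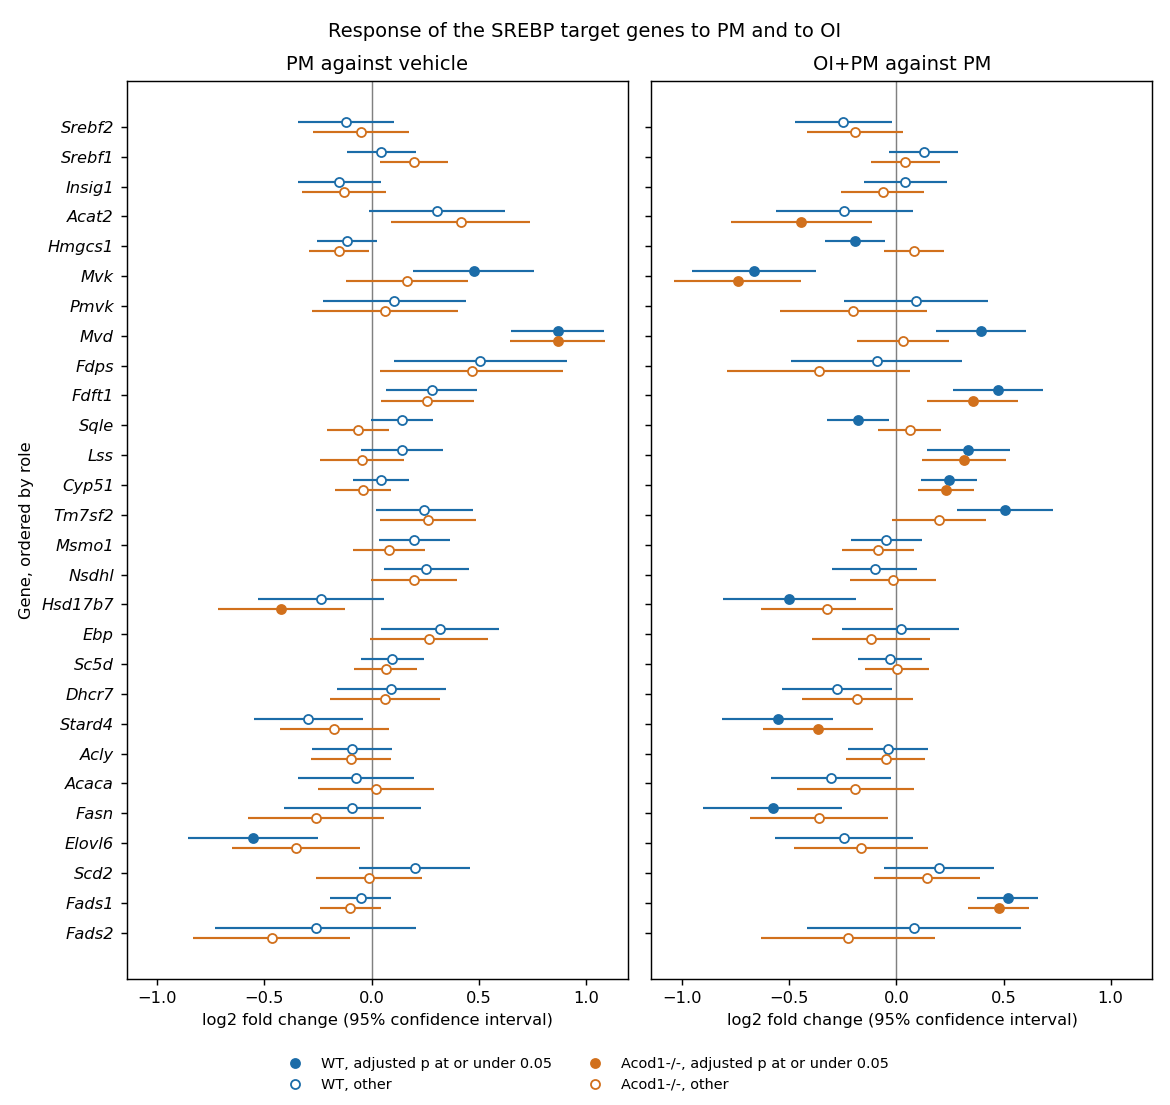
Log2 fold change with its 95% confidence interval for each of the 28 tested genes, for PM against vehicle (left) and OI+PM against PM (right), in WT (blue) and Acod1-/- cells (orange), with filled points for an edgeR adjusted p at or under 0.05. With PM, Mvd stands at 0.87 in both genotypes, and with OI the filled points lie on both sides of 0, from Mvk at -0.67 and -0.74 to Fads1 at 0.52 and 0.48.

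With OI, Fads1 and Fdft1 rose and Mvk and Stard4 fell in both genotypes, while the number of members that changed was no more than the share of all genes. In PM-treated WT cells 12 of 28 members passed the test, 6 up and 6 down, against 43.9% of all tested genes (21.3% up, 22.6% down). With scaling to total counts, which put the median of all genes at -0.11 here, 15 passed, 4 up and 11 down, and Lss and Cyp51 no longer passed, nor did they in Acod1-/- cells. The shares of all genes called up and down under that scaling are not given, so these counts are not set against them. In PM-treated Acod1-/- cells 7 of 28 passed, 4 up and 3 down, against 34.6% of all genes (13.9% up, 20.6% down). No member changed 2-fold with PM (all genes past the test and 2-fold, 4.15% in WT and 4.50% in Acod1-/- cells) or with OI (10.8% and 9.83%). OI+PM and PM libraries did not overlap for 18 of 28 members in WT (all genes, 59.1%) and 21 of 28 in Acod1-/- cells (74.4%). The median over the members was -0.04 in WT and -0.08 in Acod1-/- cells, against 0.02 and -0.00 over all genes. The comparisons in the 2 genotypes share no libraries, and 6 members passed in both with the same direction: Fads1, Fdft1, Lss and Cyp51 rose, and Mvk and Stard4 fell. These were 50% of the WT list and 85.7% of the Acod1-/- list, beside 67.9% and 86.2% for all genes. The sign was the same in both genotypes for 21 of 28 members (75%), beside 83.3% of all genes.

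Among the mevalonate genes, Mvk fell in both genotypes. Its WT libraries went from 12.7 and 14.1 CPM with PM to 7.27 and 9.66 with OI+PM, and its Acod1-/- libraries from 11.2 and 11.9 to 6.45 and 7.38. The OI+PM libraries were below all PM libraries, and in Acod1-/- cells below the vehicle libraries too. The log2 fold changes were -0.67 ± 0.13 (edgeR adjusted p = 0.00236) and -0.74 ± 0.13 (adjusted p = 0.00159), and the Acod1-/- value passed in all 22 alternative fits. Mvd rose further in WT cells, to 32.2 and 37.6 CPM (0.39 ± 0.09, adjusted p = 0.00723), whereas in Acod1-/- cells it was at 22.9 and 22.4 CPM, beside 22.0 and 22.4 with PM alone (0.03 ± 0.10, 95% confidence interval -0.18 to 0.24). Hmgcs1 in WT libraries was at 101 and 95.8 with PM and 87.6 and 84.3 with OI+PM (-0.19 ± 0.06, adjusted p = 0.0318), a fall that passed in 12 of the 22 alternative fits. Acat2, the cytosolic acetoacetyl-CoA thiolase, in Acod1-/- libraries was at 8.60 and 7.55 against 6.54 and 5.32 CPM (-0.44 ± 0.15, adjusted p = 0.0401), and passed in 14 of 22. Pmvk, phosphomevalonate kinase, and Fdps, farnesyl diphosphate synthase, did not pass, with 0.09 ± 0.15 and -0.09 ± 0.18 in WT and -0.20 ± 0.15 and -0.36 ± 0.19 in Acod1-/- cells.

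Of the 11 genes from squalene to sterols, 4 rose and 2 fell in WT cells (all genes, 21.3% up and 22.6% down), and 3 rose in Acod1-/- cells (all genes, 13.9% up and 20.6% down). Fdft1, squalene synthase, went from 17 and 17.2 CPM to 21.7 and 25.9 in WT libraries and from 15.1 and 13.8 to 18.5 and 18.4 in Acod1-/- libraries (0.48 ± 0.09, adjusted p = 0.00252, and 0.36 ± 0.10, adjusted p = 0.0156). Lss, which closes squalene epoxide to lanosterol, was at 26.7 and 24.3 CPM with PM and 33.5 and 30.8 with OI+PM in WT libraries, and at 21.5 and 19.2 against 26.0 and 24.7 in Acod1-/- libraries. Lss rose by 0.34 ± 0.09 and 0.32 ± 0.09, and Cyp51, the lanosterol demethylase, by 0.25 ± 0.06 and 0.23 ± 0.06. The values of all 3 were close in the 2 genotypes, and none of their PM and OI+PM groups overlapped. Tm7sf2, a sterol reductase, was at 11.4 and 12.4 against 15.7 and 18.1 CPM in WT libraries (0.51 ± 0.10, adjusted p = 0.00247), and at 13.2 and 13.8 against 15.0 and 16.1 in Acod1-/- libraries (0.20 ± 0.10, adjusted p = 0.155). Against this direction, Hsd17b7 in WT libraries went from 12.3 and 9.64 to 8.28 and 7.20 CPM (-0.50 ± 0.14, adjusted p = 0.0152), and in Acod1-/- libraries from 9.42 and 11.4 to 8.41 and 8.24 (-0.32 ± 0.14, adjusted p = 0.0991). Its WT fall was lost without WT PM replicate 1 or WT OI+PM replicate 2. Sqle, squalene epoxidase, fell in WT cells by 0.18 on the log2 scale (SE 0.07, adjusted p = 0.0480), a call that held in 7 of 22 alternative fits. Msmo1, Nsdhl, Ebp, Sc5d and Dhcr7 did not pass in either genotype, with values of -0.28 to 0.02.

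Stard4, a carrier of cholesterol between membranes, fell. WT libraries were at 43.3 and 35.4 CPM with PM and 29.5 and 24.0 with OI+PM, and Acod1-/- libraries at 40.0 and 42.0 against 32.5 and 31.2. The groups were apart in both genotypes, and the log2 fold changes were -0.55 ± 0.12 (adjusted p = 0.00359) and -0.36 ± 0.12 (adjusted p = 0.0332).

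**Figure D3:**
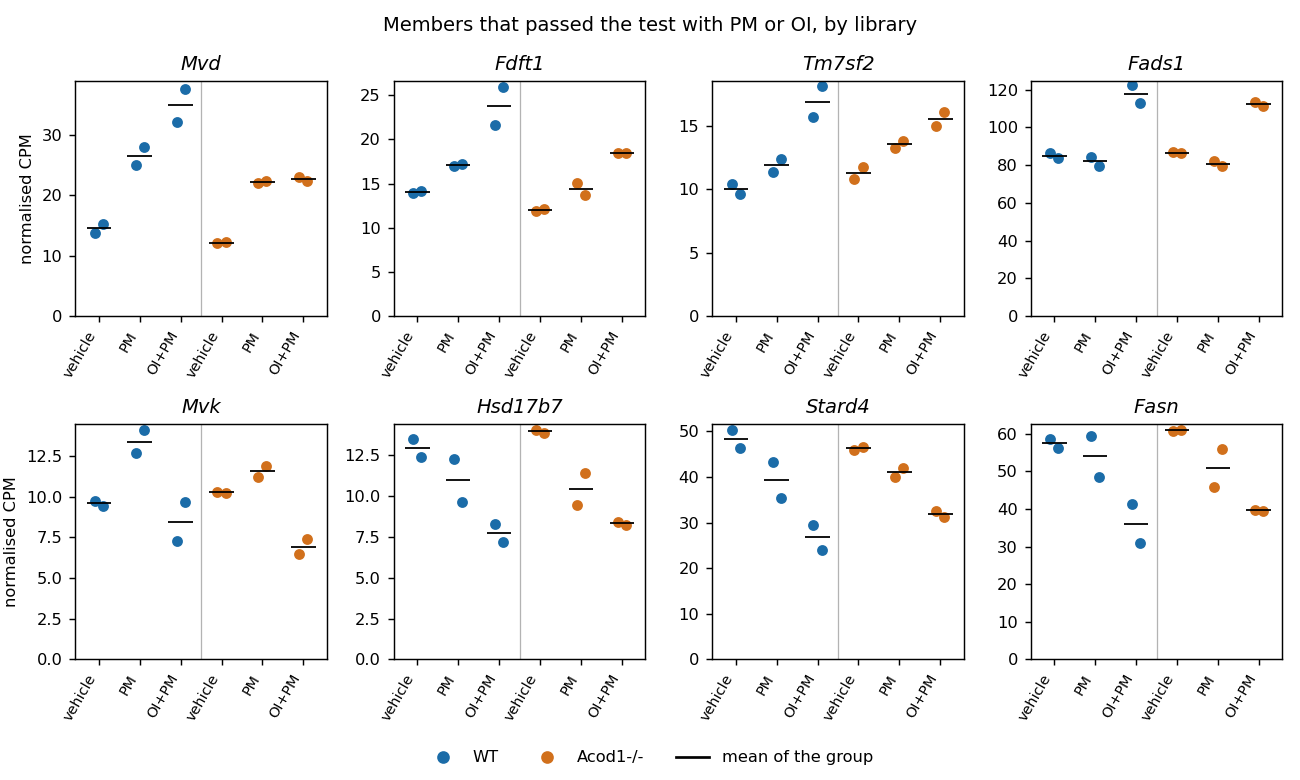
Normalised CPM of 8 members in each library (points) with the group mean (black line), for vehicle, PM and OI+PM in WT (blue) and Acod1-/- cells (orange), each axis starting at 0. Mvd steps up with PM, Fads1 is higher with OI+PM alone at 112 to 122 CPM, and Hsd17b7, Stard4 and Fasn are lowest with OI+PM in both genotypes.

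Of the 4 genes of fatty acid synthesis, Fasn alone passed the test, a fall in WT cells (all genes, 22.6% down in WT and 20.6% in Acod1-/- cells). Of the 3 tested desaturase genes, Fads1 alone rose, in both genotypes (all genes, 21.3% up in WT and 13.9% in Acod1-/- cells). In either direction 43.9% and 34.6% of all genes passed, so these counts of members are not high. Fads1, the delta-5 desaturase of polyunsaturated fatty acids, was at 84.2 and 79.8 CPM with PM and 122 and 113 with OI+PM in WT libraries, and at 82.1 and 79.7 against 114 and 112 in Acod1-/- libraries. All 4 OI+PM libraries stood above the 8 others, which lay between 79.7 and 86.8 CPM. The log2 fold changes were 0.52 ± 0.06 (edgeR adjusted p = 0.000111) and 0.48 ± 0.06 (adjusted p = 0.000222), and both passed in all 22 alternative fits. Fasn, fatty acid synthase, was at 59.5 and 48.5 against 41.3 and 30.9 CPM in WT libraries (-0.58 ± 0.14, adjusted p = 0.00927), and at 45.8 and 55.9 against 39.7 and 39.5 in Acod1-/- libraries (-0.36 ± 0.14, adjusted p = 0.0817). OI+PM libraries were again the lower ones in each genotype, and the WT call was lost without WT PM replicate 1. In Acod1-/- cells the Fasn fall passed in 6 of the 22 alternative fits, the length correction (-0.35, adjusted p = 0.00266) and the compared groups alone among them. Acly, Acaca (acetyl-CoA carboxylase) and Elovl6 did not pass, with -0.04 to -0.31 in WT and -0.05 to -0.19 in Acod1-/- cells, nor did Scd2 (0.20 ± 0.12 and 0.14 ± 0.11) or Fads2 (0.08 ± 0.22 and -0.23 ± 0.18).

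The number of WT calls varied with the fit. In a fit of the WT PM and WT OI+PM libraries alone, 1 of the 12 members, Fads1, still passed. Such a fit estimates the spread of every gene from fewer libraries. Counts in this paragraph are given without the share of all genes called in the same fits. They do not show whether calls of members were lost more often than those of other genes. Without WT OI+PM replicate 1 the count was 13 and without replicate 2 it was 11, with Fads1, Fdft1, Lss, Cyp51, Tm7sf2, Mvd, Mvk, Stard4 and Fasn past the test both times and in the same directions. Without WT PM replicate 1 it was 7, Mvd, Fasn and Hsd17b7 among those lost, and without WT PM replicate 2 Lss was lost. In Acod1-/- cells the calls of Fads1 and Mvk held without any 1 library, whereas those of Fdft1, Lss, Cyp51 and Stard4 were lost without Acod1-/- PM replicate 2, Acod1-/- OI+PM replicate 1 or Acod1-/- OI+PM replicate 2, which left 2, 3 and 2 members. The Stard4 call was also lost without either Acod1-/- vehicle library, without Acod1-/- PM replicate 1 and with a filter of 10 counts in total.

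Against vehicle, the joint effect of PM and OI was the broadest. It passed for 15 of 28 members in WT cells (8 up, 7 down; all genes, 65.5%, 33.6% up and 31.9% down). In Acod1-/- cells it passed for 13 of 28 (7 up, 6 down; all genes, 49.4%, 22.7% up and 26.7% down). Fads2, 1 of the 6, passed the filter only through the Acod1-/- vehicle group, so its fall is tied to that filter. Without Fads2, 12 of 27 passed there (7 up, 5 down). With scaling to total counts, which put the median of all genes at -0.20 in WT and -0.15 in Acod1-/- cells, the counts were 5 up and 12 down in WT and 4 up and 10 down in Acod1-/- cells. Here too the shares of all genes under that scaling are not given. These comparisons share their OI+PM libraries with those of OI+PM and PM. OI+PM and vehicle libraries did not overlap for 19 of 28 members in WT (all genes, 81.2%) and 24 of 28 in Acod1-/- cells (86.2%). Mvd had the largest value and was the only member past 2-fold, in WT cells (all genes, 16.1% in WT and 13.1% in Acod1-/- cells): 2.40-fold in WT (1.26 ± 0.10, adjusted p = 2.57e-06) and 1.86-fold in Acod1-/- cells (0.90 ± 0.10, adjusted p = 4.04e-05). Fdft1 (0.76 ± 0.09 and 0.62 ± 0.10), Tm7sf2 (0.75 ± 0.10 and 0.46 ± 0.10) and Fads1 (0.47 ± 0.06 and 0.38 ± 0.06) rose in both genotypes. Stard4 (-0.85 ± 0.12 and -0.54 ± 0.11), Hsd17b7 (-0.74 ± 0.14 and -0.74 ± 0.13) and Fasn (-0.67 ± 0.14 and -0.62 ± 0.14) fell in both. With vehicle, Fdft1 was at 13.9 and 14.2 CPM in WT and 11.9 and 12.2 in Acod1-/- libraries, and Tm7sf2 at 10.4 and 9.63 and at 10.8 and 11.7. Stard4 was at 50.3 and 46.3 and at 45.9 and 46.6 CPM with vehicle, and Fasn at 58.7 and 56.2 and at 60.8 and 61.0. Each of these 7 genes passed in all 22 alternative fits in both genotypes, and in each the OI+PM and vehicle libraries were separate. Elovl6 fell too (-0.80 ± 0.14 and -0.52 ± 0.14), and Lss (0.48 ± 0.09 and 0.27 ± 0.09) and Cyp51 (0.29 ± 0.06 and 0.19 ± 0.06) rose. In Acod1-/- cells the Lss and Cyp51 calls were lost without either vehicle library, without either OI+PM library and with scaling to total counts, and the Elovl6 call was lost without vehicle replicate 2 or OI+PM replicate 2. In WT cells the Cyp51 call was lost with that scaling and in the compared groups alone. Mvk, which rose with PM in WT cells and fell with OI, was at -0.19 ± 0.13 against vehicle in WT cells and fell in Acod1-/- cells (-0.57 ± 0.13, adjusted p = 0.00543), a call lost without Acod1-/- OI+PM replicate 1.

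Exonic length went with the size of these changes. Across the 28 members, the log2 fold change of OI+PM against vehicle in WT cells was related to length by a Spearman's rho of -0.43, and across all genes by -0.35. In Acod1-/- cells the members' rho for the same comparison was -0.24, for PM against vehicle it was -0.50 in WT and -0.46 in Acod1-/- cells, and for OI+PM against PM it was -0.33 and 0.07. The points share the same libraries, so this is a description. After a correction for the trend with length over all genes, Mvd stood at 0.93, Fdft1 at 0.71, Tm7sf2 at 0.72, Stard4 at -0.78, Hsd17b7 at -0.71 and Fasn at -0.35, all still past the test. Acaca, at 17074 exonic bases the longest member, went from -0.38 ± 0.12 (adjusted p = 0.0218) to 0.15 (adjusted p = 0.293). Lss, at 10787 bases, went from 0.48 to 0.80. Mvk went from -0.19 to -0.41 and passed the test after the correction (adjusted p = 0.00268).

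**Figure D4:**
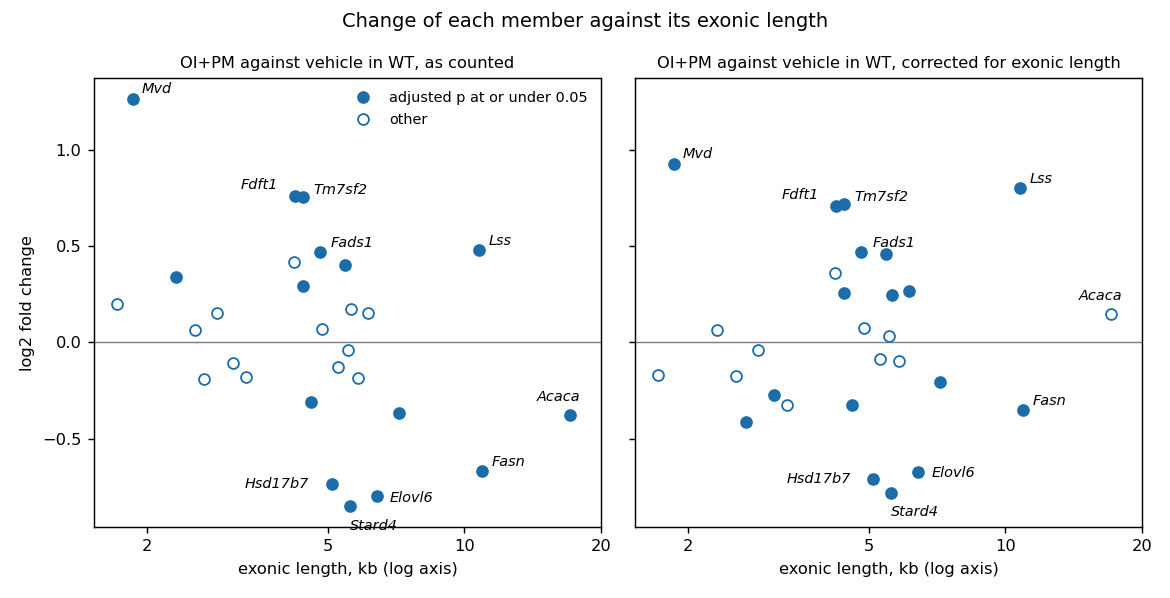
Log2 fold change of OI+PM against vehicle in WT cells (vertical axis) against exonic length in kilobases (horizontal, log axis) for the 28 tested genes, as counted (left) and after correction for the trend with length over all genes (right), with filled points for an adjusted p at or under 0.05. Mvd at 1.86 kb moves from 1.26 to 0.93 and Acaca at 17.1 kb from -0.38 to 0.15, while Stard4 stays lowest.

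Between genotypes the clearest member was Scd2. It was at 12.6 and 11.7 CPM with vehicle, 14.7 and 13.3 with PM and 17.9 and 14.1 with OI+PM in WT libraries, and at 21.2 and 22.6, 22.0 and 21.5, and 24.7 and 23.4 in the libraries labelled Acod1-/-. Each of the 6 Acod1-/- libraries was above each of the 6 WT libraries. Scd2 (chr19:44293674-44306864, plus strand) was thus 1.81-fold higher with vehicle (0.85 ± 0.11, edgeR adjusted p = 0.00435), 1.56-fold with PM (0.64 ± 0.11, adjusted p = 0.0178) and 1.5-fold with OI+PM (0.59 ± 0.11, adjusted p = 0.0172). The vehicle call was lost without WT vehicle replicate 2 or Acod1-/- vehicle replicate 2 (highest adjusted p 0.0780), the PM call without any 1 of the 4 PM libraries (0.142), and the OI+PM call without either Acod1-/- OI+PM library or in a fit of the OI+PM libraries alone (0.330), with log2 differences between 0.42 and 0.91 in all 22 alternative fits of each. Scd1, its neighbour in function, had 0 to 3 counts a library and cannot be compared. With vehicle, 2 of 28 members passed (Scd2 and Fads2, both higher) against 1.83% of all genes (0.891% higher, 0.935% lower), and with PM the same 2 of 28 against 2.40% (1.10% higher, 1.30% lower). Without 1 of the compared libraries these counts were 0 or 1. At 2-fold only Fads2 with vehicle passed (all genes, 0.481% with vehicle, 0.561% with PM and 0.917% with OI+PM). Acod1-/- and WT libraries did not overlap for 20 of 28 members with vehicle (all genes, 58.6%), 15 with PM (40.6%) and 17 with OI+PM (53.4%). Fads2, the delta-6 desaturase, passed the filter only through the group where it was high, so these counts rest on Scd2. It had 33 and 29 counts in WT and 66 and 61 in Acod1-/- vehicle libraries, 26 and 21 against 43 and 44 with PM, and 25 and 20 against 39 and 32 with OI+PM, higher in every Acod1-/- library than in any WT library of the same treatment. With the filter of at least 10 counts in total, which all 30 members passed, the Fads2 difference was 1.10 ± 0.19 (adjusted p = 0.0161) with vehicle, 0.91 ± 0.21 (adjusted p = 0.0712) with PM and 0.61 ± 0.22 (adjusted p = 0.169) with OI+PM. Fads1, next to Fads2 on chromosome 19, differed by 0.03 ± 0.06 and -0.02 ± 0.06.

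With OI+PM, 4 of 28 members passed against 6.96% of all genes: Scd2 was higher (all genes, 2.51% higher), and Mvd, Fdft1 and Lss were lower (all genes, 4.45% lower). These shares belong to the main fit alone. Member counts under the alternative fits below are given without a share of all genes and cannot be set against them. Mvd was at 32.2 and 37.6 CPM in WT and 22.9 and 22.4 in Acod1-/- libraries, 1.54-fold lower (-0.62 ± 0.09, adjusted p = 0.00724). Fdft1 (-0.36 ± 0.09, adjusted p = 0.0474) and Lss (-0.35 ± 0.09, adjusted p = 0.0423) were just inside the threshold and passed in 6 and 9 of the 22 alternative fits. The Mvd call was lost in a fit of the OI+PM libraries alone and without either Acod1-/- OI+PM library, with values between -0.73 and -0.46 over the 22 fits. Without WT OI+PM replicate 1 the count of members was 12, and without replicate 2 it was 3.

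No member's response differed between genotypes by a test of the difference itself. For PM, edgeR passed 0 of 28 members and 0 of 11228 genes (0.00%), with 0 members at an unadjusted p under 0.05, and DESeq2 passed 0 members and 3 genes. For OI, edgeR passed 0 members and 0 genes, with 3 members at an unadjusted p under 0.05 (all genes, 6.39%), and DESeq2 passed 0 members and 34 genes. The smallest p values for OI were those of Hmgcs1 (0.27 ± 0.09 more in Acod1-/- cells, 95% confidence interval 0.08 to 0.47, edgeR adjusted p = 0.702) and Mvd (-0.37 ± 0.13, interval -0.67 to -0.07, adjusted p = 0.752). For PM they were those of Sqle (-0.21 ± 0.09, interval -0.41 to 0.00, adjusted p = 0.9998) and Mvk (-0.31 ± 0.18, interval -0.71 to 0.09, adjusted p = 0.9998). The intervals leave room for differences of about the size of the effects themselves, so these values do not show that the genotypes responded alike. Without WT OI+PM replicate 1, 1 member passed for OI, Mvd.

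Some genes around the pathway had larger changes than any member. Of 23 such genes, 21 were tested (Acacb was too low and Thrsp had no count), and 10 passed with PM in WT cells (6 up, 4 down) and 11 in Acod1-/- cells (6 up, 5 down), against 24.8% and 23.9% of all genes. With OI 11 passed in WT cells (8 up, 3 down) and 8 in Acod1-/- cells (5 up, 3 down), against 43.9% and 34.6%. The list was chosen with earlier results of these data known, so its counts may not be independent of them. Acss2, which makes acetyl-CoA from acetate and is itself a known SREBP target, was at 5.04 and 5.44 CPM with vehicle, 35.5 and 35.7 with PM and 140 and 147 with OI+PM in WT libraries, and at 4.07 and 3.97, 31.3 and 27.7, and 111 and 113 in Acod1-/- libraries. It rose 6.79-fold and 7.34-fold with PM (2.76 ± 0.08 and 2.88 ± 0.09) and a further 4.04-fold and 3.81-fold with OI (2.01 ± 0.07 and 1.93 ± 0.07), with groups far apart, although its exons overlap Acss2os, Ggt7 and Gss. Me1, malic enzyme, which supplies NADPH, rose 3.13-fold and 2.94-fold with PM and 2.07-fold and 1.95-fold with OI. Lbr, a nuclear envelope protein with the same sterol reductase activity as Tm7sf2, fell with PM (-0.51 ± 0.09 and -0.41 ± 0.09) and with OI (-1.03 ± 0.09 and -0.72 ± 0.09). Acat1, the mitochondrial thiolase, fell with OI (-0.92 ± 0.08 and -0.83 ± 0.08), and Acsl1, a long-chain acyl-CoA synthetase, rose with PM (0.71 ± 0.07 and 1.17 ± 0.07) and fell with OI (-0.73 ± 0.07 and -1.08 ± 0.07). Of the SREBP regulators outside the members, Scap (0.49 ± 0.07 and 0.35 ± 0.07) and Insig2 (0.52 ± 0.07 and 0.36 ± 0.07) rose with OI in both genotypes while Insig1 did not pass.

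Of the sterol efflux genes, Abca1 had the largest change. Abca1, the transporter that loads cholesterol onto apolipoproteins and an LXR target, was at 152 and 105 CPM with PM and 9.24 and 6.15 with OI+PM in WT libraries, and at 244 and 260 against 12.9 and 14.0 in Acod1-/- libraries. It fell 16.6-fold and 18.8-fold (-4.05 ± 0.22 and -4.23 ± 0.21), far more than any member. Nr1h3, which encodes LXR alpha, fell 2.30-fold and 3.38-fold (-1.20 ± 0.13 and -1.75 ± 0.13). Mylip, an LXR target that marks lipoprotein receptors for degradation, rose (0.62 ± 0.09 and 0.40 ± 0.08), so the LXR genes did not move as 1 group. Of the 7 genes on this list 6 were tested, and with OI 2 rose and 2 fell in WT cells and 1 rose and 2 fell in Acod1-/- cells, against 43.9% and 34.6% of all genes called. This list too was chosen with earlier results of these data known.

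**Figure D5:**
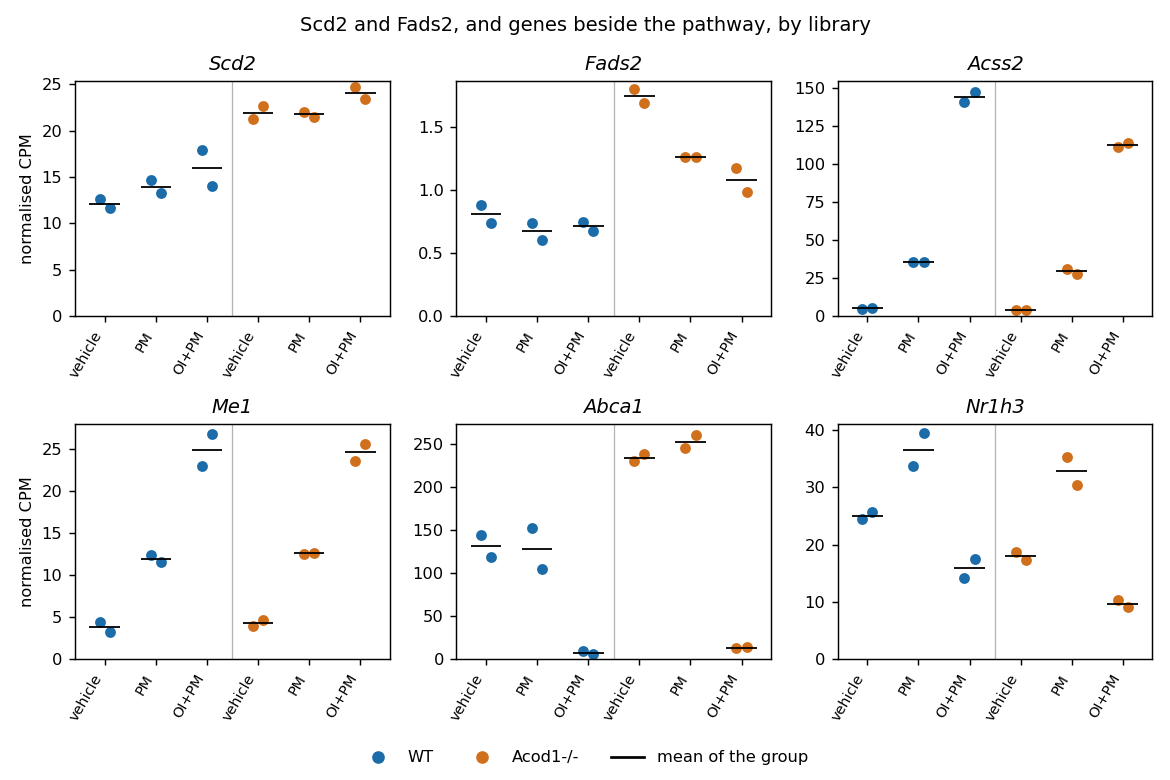
Normalised CPM of Scd2 and Fads2 and of 4 genes beside the pathway in each library (points) with the group mean (black line), for vehicle, PM and OI+PM in WT (blue) and Acod1-/- cells (orange), each axis starting at 0. Scd2 and Fads2 are higher in the Acod1-/- libraries at each treatment, Acss2 and Me1 step up with PM and again with OI, and Abca1 drops to between 6.15 and 14.0 CPM with OI+PM.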

How the data were processed

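Total RNA of 12 BMDM libraries was sequenced as 50-base single reads. Per the labels and methods, the authors checked reads with FastQC 0.11.5, aligned them to GRCm38 with STAR 2.5.3a, used Picard 2.9.0 and assigned reads to genes with featureCounts. What the authors deposited are unnormalised counts, 1 table a library. Annotation release, strand and treatment of multiply mapped reads are not given in the sources used here.

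Counts were analysed with edgeR 4.0.16 in R 4.3.3: genes above 1.5 CPM in at least 2 of 12 libraries, TMM scaling, 1 mean per group over all 12 libraries, and quasi-likelihood tests with Benjamini-Hochberg adjustment over all 11228 genes, so the 6 groups share 1 estimate of spread. A member passed the test at an adjusted p of 0.05 or less. Errors are SE of log2 fold changes. CPM are TMM-normalised. The study's added 2-fold rule, DESeq2 1.42.0, other scalings and filters, the compared groups alone, a correction for exonic length (GENCODE M21, lowess span 0.3), a block for replicate number and each library left out in turn were alternatives, and an exchanged block was added after the data were seen. On simulated counts for PM against vehicle in WT cells (11228 genes), 48% of log2 changes of 0.5 and 96% of changes of 1 were recovered, and 4.64% of calls were false. The simulation changed 100 genes at each size, fewer than passed in the data, and held no trend with exonic length. These shares therefore need not hold for the data. The 30 members, the 23 other pathway genes, the 7 efflux genes and the markers were chosen with earlier results of these data known. All members are described. Library values are given for Srebf1, Srebf2 and Insig1, for the 3 largest rises and falls past the test with PM and with OI in each genotype with mean CPM of 5 or more, for members past the test between genotypes, and for some others chosen after their values were seen. Promoters are from RefSeq tables, matched by symbol.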

Additional observations from a re-analysis of the deposited data

How the results depend on the processing

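The replicate numbers were not taken to pair the libraries. Of 15 group pairs, deviations of same-numbered libraries correlated above 0.1 in 5, the 3 WT pairs among them, with a range from -0.41 to 0.73. The highest value, 0.73, was that of WT PM with WT OI+PM, the groups of the OI comparison in WT cells. The main fit leaves this shared deviation in the spread between libraries. With the replicate block the members past the test numbered 3 and 2 with PM (WT, Acod1-/-), 11 and 7 with OI, 15 and 13 for OI+PM against vehicle, 2, 2 and 3 between genotypes, and 0 for both differences of response. With the numbers of the Acod1-/- PM group exchanged in the block, an alternative chosen after seeing the data, 8 and 3 members passed with PM, 14 and 9 with OI, 17 and 14 against vehicle, and 2, 2 and 6 between genotypes. Requiring 2-fold left 0, 0, 0, 0, 1, 0, 1, 0 and 0 in the same order up to OI+PM between genotypes. The compared groups alone gave 13 for PM in Acod1-/-, 1 for OI in WT, and 7, 1 and 0 between genotypes with vehicle, PM and OI+PM. A filter on CPM in all 12 libraries gave 1, 1 and 2 between genotypes, and one of 10 counts in total gave 1 for PM in Acod1-/- and 1 and 2 between genotypes with PM and OI+PM. DESeq2 gave 1 between genotypes with PM. Total count scaling, which shifted the median of all genes by -0.20 for OI+PM against vehicle in WT, -0.15 in Acod1-/- and -0.11 for OI in WT, gave 4 for PM in Acod1-/- and 2 between genotypes with OI+PM. The length correction gave 7 and 4 with PM and 4 between genotypes with PM, and with the replicate block 9 and 5 with PM. Under the length correction, alone or with the block, of the values past the test before or after it those that changed sign were, for OI+PM against vehicle in WT, Acaca (0.15 and 0.15), Mbtps1 (0.0394 and 0.0400), Mid1ip1 (-0.24 and -0.24), Lpin1 (0.0177 and 0.0176) and Acsl1 (0.29 and 0.28), and, with PM, Soat1 (0.18 and 0.18 in WT, 0.17 and 0.17 in Acod1-/-). Members past the test neither before nor after also changed sign, among them Fasn (0.13) and Acaca (0.28) with PM in WT, and Pmvk with PM (-0.12 in WT, -0.10 in Acod1-/-) and for OI+PM against vehicle in WT (-0.17). Leaving out 1 library gave 1 to 10 and 1 to 9 with PM, 7 to 13 and 2 to 8 with OI, 12 to 20 and 9 to 15 against vehicle, 0 to 2, 0 to 5 and 0 to 12 between genotypes, 0 to 0 for the difference of PM responses and 0 to 1 for that of OI. All these counts are given without the share of all genes called in the same fit. Apart from the construction of each alternative, the cause was not tested. In counts simulated for PM against vehicle in WT cells, 48% of log2 changes of 0.5 were recovered. The simulation changed 100 genes at each size, whereas 24.8% of all genes passed in the data. It also held no trend with exonic length between replicates, so how often such changes were missed in the data was not tested. Recovery in the other comparisons was not tested.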
